A study of Drosophila melanogaster with 6 samples.

Results

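The transcriptome of control first instar larvae of Drosophila melanogaster was described from 3 Affymetrix arrays, out of 6 arrays in the series. All probe sets that name exactly 1 gene were taken. Where a gene had several, the 1 whose mean was highest across all 6 arrays stood for it. This gave 11983 genes out of 18952 features on the array, and no gene was removed for a low value. The control larvae carried dKDM4A precise KG06436 over dKDM4A precise NP0618, 2 alleles of the demethylase gene Kdm4A that remain after precise excision of an insertion. They are labelled wt, but they are not an unmanipulated strain. Each array held total RNA pooled from 200 whole larvae that were raised at 25 °C and frozen about 48 after egg laying, a time that the labels give with no unit. The arrays are labelled biological replicates and are called control 1, control 2 and control 3 here. The other 3 arrays, of larvae with dKDM4A KG04636 over ∆dKDM4A, entered only the choice of the probe set. Larval sex and sibling batches within the collections are not given in the labels.

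The first instar is the stage in which a newly hatched fly larva feeds continuously and grows. Its gut secretes serine proteases and carbohydrases into the lumen, the fat body stores lipid and makes the carrier proteins of the hemolymph, and the body wall muscles drive crawling and feeding. The epidermis and the tracheae are covered by a chitin and protein cuticle that is replaced at the moult to the second instar, under control of the steroid hormone ecdysone. In RNA from whole larvae, fewer cells of a type and less RNA per cell cannot be told apart.

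The values are log2 expression values. Within each array a gene was also given a percentile, the share of the 11983 genes with a lower value there. A percentile ranks the signals of probe sets, and these also hold how well each probe set binds its target. For the 1094 genes with more than 1 probe set, the percentiles of their highest and lowest probe sets lay a median of 24.2 points apart, and 48.4% of these genes had a gap above 25 points. The position of 1 gene is therefore a rough one, and most statements below are about groups of genes. Values of single genes are log2 values, given either for control 1, control 2 and control 3 in that order or as the mean ± SD (n = 3).

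The median log2 value over genes was 6.70, 6.74 and 6.76 in the 3 arrays, and the highest values were 14.50, 14.53 and 14.53. The arrays carry 17 tag control probe sets made to match no fly transcript, and the highest of these read 4.79, 4.67 and 4.72. Between 27.9% and 29.5% of genes lay below that level in an array, and genes in the bottom 25% are treated as not distinguished from it. Over all genes, controls 1 and 2 correlated at a Pearson r of 0.988, controls 2 and 3 at 0.990 and controls 1 and 3 at 0.974. These coefficients run across genes, which are not independent replicates. Probe sets at the 3′ end exceeded those at the 5′ end of the same transcript by 2.34, 1.84 and 1.61 log2 units for actin, by 1.52, 1.21 and 1.15 for GAPDH and by 2.76, 2.14 and 2.09 for eIF-4a. This measure of RNA and cDNA length was largest in control 1 for all 3 transcripts. Precision is limited by the number of arrays.

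Among the 11983 genes kept, the top was held by ribosomal protein genes and by digestive proteases. Features that name several genes or none were not ranked here. Of the 163 non-control features in the top 1% of all 3 arrays, 90 name 1 gene, 8 name several and 65 have no listed gene. In all 3 arrays 1022 of 11983 genes (8.53%) lay in the top 10%, above percentile 90, and 2781 (23.2%) lay in the bottom 25%. The gene with the highest mean was Jon65Aiv, a Jonah protease of the gut, with log2 values of 14.45, 14.53 and 14.50. It was at or near the top of the kept genes in each array. Next came RpL41, at 14.47 ± 0.073, RpL15, at 14.44 ± 0.038, and RpS29, at 14.43 ± 0.022, which encode proteins of the large and small ribosomal subunits. The 3 arrays differed by at most 0.14 for any of these 4 genes. Of the 25 genes with the highest means, 19 encode cytoplasmic ribosomal proteins. Another 5 are the serine protease genes Jon65Aiv, Jon65Aiii, Jon25Biii, yip7 and epsilonTry, and 1 is Nplp2, a neuropeptide-like precursor, at 14.33, 14.27 and 14.27. The means of these 25 genes lay between 14.12 and 14.49, and differences of this size between probe sets carry no order of transcript abundance.

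**Figure D1:**
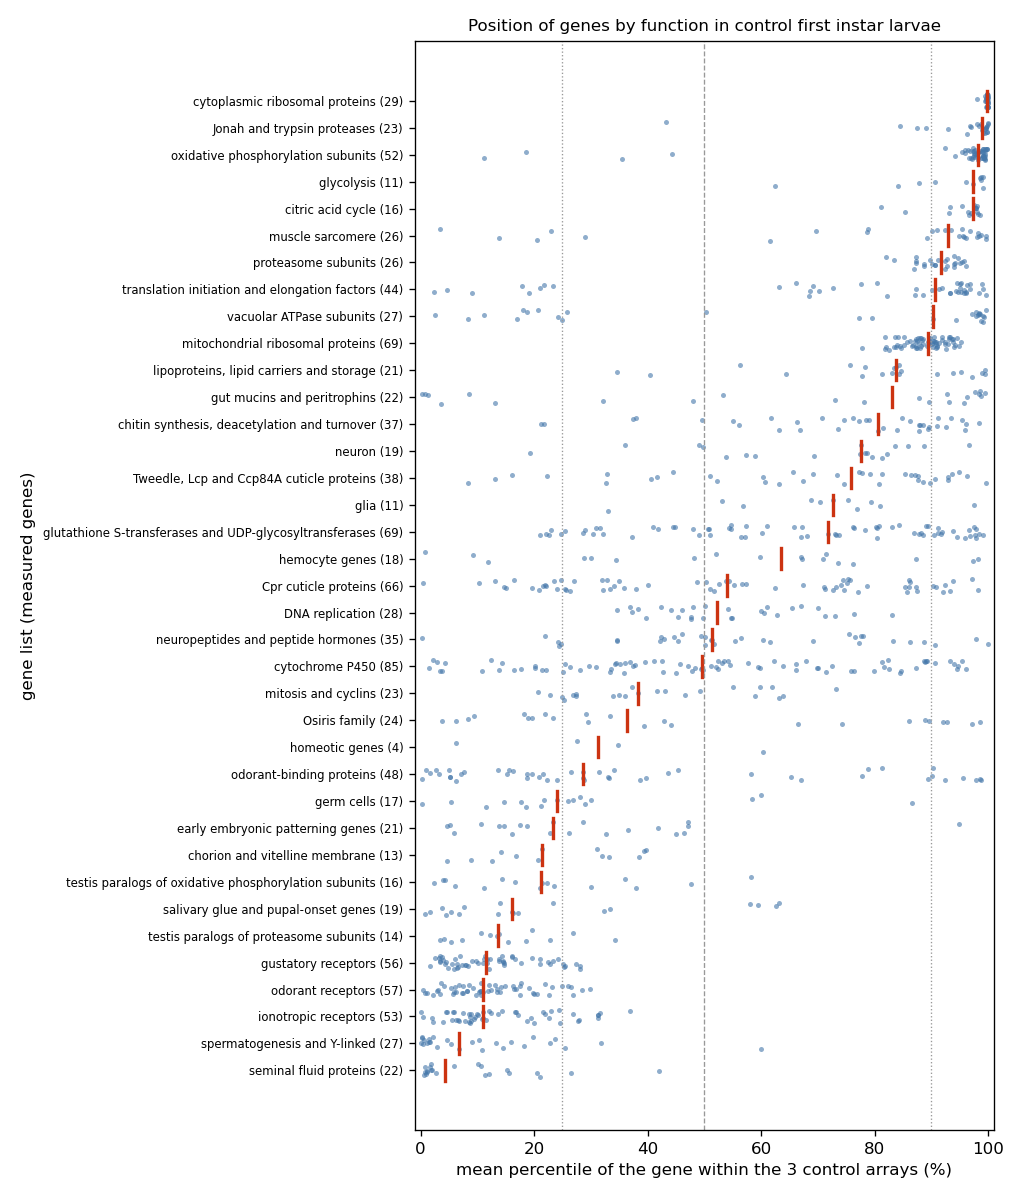
Each point is 1 gene of a list, placed at its mean percentile (in %) over the 3 control arrays, and the red bars mark the list medians. Dotted lines stand at percentiles 25 and 90 and the dashed line at 50. Ribosomal proteins, digestive proteases and oxidative phosphorylation subunits crowd at the right edge, and chemosensory receptors, seminal fluid proteins and spermatogenesis genes at the left.

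Translation genes lay high, the cytoplasmic ribosome above all. Of 80 genes listed for cytoplasmic ribosomal proteins, 29 were measured by a probe set with 1 named gene, and 29 of these lay in the top 10%. The array medians of the list were 99.9, 99.8 and 99.9. The lowest measured member was RpL34a, with log2 values of 12.47, 12.54 and 12.51, at percentile 98.1. The paralogs known mainly from germline or testis lay apart from them: 8 were measured, 0 lay in the top 10% and their medians were 43.2, 39.3 and 41.9. Among these, RpS5b was the highest, at 8.77, 9.09 and 10.20, and control 3 stood above the other arrays. RpS28-like was the lowest of the 8, at 3.71, 3.62 and 3.54. Probe sets of near-identical copies may share signal, and whether they did was not tested.

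The 69 mitochondrial ribosomal proteins formed a tight group below the cytoplasmic ones, with medians of 89.1, 89.04 and 89.5. Of these, 24 lay in the top 10% and 0 in the bottom 25%. Their span ran from mRpS21, at 11.19 ± 0.14, to mRpL45, at 8.73 ± 0.039. Translation factors lay over a wide span. Of 44 measured, 22 (50%) lay in the top 10% and 7 (15.9%) in the bottom 25%, against 8.53% and 23.2% of all genes. The highest were eEF5, the elongation factor known as eIF5A, at 13.86 ± 0.021, eEF1gamma, at 13.29 ± 0.10, and the helicase eIF4A, at 13.16 ± 0.084. All 13 measured core subunits of the scaffold eIF3 lay in the top 10%, whereas the 5 subunits of the exchange factor eIF2B had medians of 71.8, 73.7 and 72.4 and 0 of them lay there. The lowest were eIF4E7, at 3.07 ± 0.056, and eIF4E5, at 3.47 ± 0.11, variants of the cap-binding protein, and eIF4H2, at 3.23 ± 0.11.

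The enzymes that load tRNAs lay lower than the ribosome, with 0 of 18 cytoplasmic aminoacyl tRNA synthetases in the top 10% of all 3 arrays and medians of 80.7, 81.9 and 80.8. GluProRS was the highest at 10.23 ± 0.20 and AlaRS the lowest at 8.21 ± 0.14. The secretory entry route stood higher: 12 of 18 translocon, signal recognition and signal peptidase genes lay in the top 10%. The channel subunits Sec61beta and Sec61gamma read 12.93 ± 0.086 and 12.39 ± 0.13. The single low member was the peptidase subunit Spase22-23, at 4.59, 4.38 and 4.47.

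Energy metabolism lay almost as high as the ribosome. Of 52 measured subunits of the respiratory chain and ATP synthase, 48 lay in the top 10%, with medians of 98.05, 98.3 and 98.3. All 9 cytochrome c oxidase subunits, 11 of 12 ATP synthase subunits and 20 of 22 complex I subunits did so. The ATP synthase subunit ATPsynF read 13.99 ± 0.026 and the alpha subunit gene blw 13.68 ± 0.050. The 2 members in the bottom 25% were ND-B8, a complex I subunit gene, at 3.58 ± 0.028, and sun, an ATP synthase epsilon subunit gene, at 3.96 ± 0.059. Paralogs of these subunits known from testis lay at the other end: 0 of 16 lay in the top 10%, 10 lay in the bottom 25%, and the medians were 22.3, 20.7 and 18.998.

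All 11 measured glycolytic genes lay above the array median, and 7 lay in the top 10%. Eno, the enolase gene, read 13.32 ± 0.23 and Gapdh1 13.29 ± 0.25. The hexokinases were the lower end together with Pglym78: Hex-A read 9.80 ± 0.16 and Hex-C 7.60 ± 0.25. Pfk, which encodes the rate-controlling phosphofructokinase, read 9.74, 10.42 and 10.65 and was the glycolytic gene with the widest range, 0.91, lowest in control 1. Of 16 citric acid cycle genes, 14 lay in the top 10%, with Mdh1, a malate dehydrogenase, at 12.64, 12.99 and 12.90. The exceptions were Idh3g, a subunit of isocitrate dehydrogenase, at 9.51 ± 0.46, and ScsbetaG, a succinyl-CoA synthetase subunit, at 9.04 ± 0.13. Of 27 genes of the proton pump, the vacuolar ATPase, 13 (48.1%) lay in the top 10% and 7 (25.9%) in the bottom 25%. Over all genes these shares were 8.53% and 23.2%, so the share at the bottom was near that of all genes. Vha16-1, Vha13 and Vha26 lay at mean percentiles of 99.6, 99.3 and 99.1, and the paralogs Vha14-2, Vha16-2 and Vha68-3 at 11.1, 8.37 and 2.59.

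Digestive genes of the gut were among the highest of the larva. Of 23 Jonah and trypsin genes, 19 lay in the top 10%, with medians of 98.99, 99.1 and 99.04. This held for 12 of 13 Jonah genes and 7 of 10 trypsins. Jon65Aiii read 14.30 ± 0.068 and epsilonTry 14.12 ± 0.13, while etaTry and iotaTry, the lower trypsins, read 9.74 ± 0.039 and 9.40 ± 0.089. Try29F was unlike the rest: it read 8.84, 4.43 and 4.43, so only control 1 stood above the highest tag control. The proteins that line the gut lumen lay at many levels. Of 22 mucins and peritrophins, the chitin-binding or glycosylated proteins of the peritrophic matrix and mucus, 9 (40.9%) lay in the top 10% and 6 (27.3%) in the bottom 25%. Over all genes these shares were 8.53% and 23.2%, so the share at the bottom was near that of all genes. Peritrophin-15a read 13.63 ± 0.031 and Muc55B 12.90 ± 0.18, whereas Muc12Ea and Muc14A read 2.91 ± 0.054 and 2.77 ± 0.14.

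Carbohydrate-digesting genes and lysozymes lay lower and differed between arrays. Of 14 maltase, amylase and lysozyme genes, 2 lay in the top 10% of all 3 arrays, LysS, at 13.08 ± 0.14, and Mal-A3, at 10.41 ± 0.21. The medians were 71.8, 62.2 and 58.2, and 11 of 14 genes were highest in control 1, where 3511 of all 11983 genes were highest. Mal-A6 read 11.13, 10.53 and 9.21. Amyrel, an amylase-related gene, read 8.09, 7.55 and 6.22. Transcription factors of gut regions lay near the middle: 0 of 12 were in the top 10%. The posterior factor cad read 9.04 ± 0.041 and GATAe, a regulator of the midgut, 8.33 ± 0.027, with ranges of 0.08 and 0.05 between arrays.

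Muscle genes lay high by the probe set taken for each gene, and the larval set of contractile genes lay above the adult set. Of 26 sarcomere genes, 14 lay in the top 10% and 4 in the bottom 25%, with medians of 91.3, 93.2 and 94.1. The level of this list depended on the choice of probe set. Its median of mean percentiles was 92.9, but 85.4 with the mean of probe sets and 69.9 with the lowest probe set. Mp20, a calponin-like muscle protein, read 13.86 ± 0.16, the myosin light chain gene Mlc1 13.73 ± 0.16 and tropomyosin Tm2 12.74 ± 0.24. The 4 genes known from larval muscle all lay in the top 10%, among them the actin Act87E, at 11.55 ± 0.33, and the LIM protein Mlp60A, at 12.62 ± 0.11. Their median of mean percentiles was 94.8, but 61.1 when the lowest probe set of each gene was taken instead. For the adult genes these values were 20.6 and 24.3. The 5 known from adult muscle had medians of 19.8, 21.9 and 20.05, and 4 lay in the bottom 25%. These were Act79B, at 4.24 ± 0.036, the flight muscle actin Act88F, at 4.08 ± 0.10, flightin (fln), at 3.71 ± 0.075, and TpnC4, at 3.16 ± 0.050. TpnC41C read 4.51, 4.66 and 5.12. Of the 26 sarcomere genes, 21 were highest in control 3, against 4779 of 11983 genes. The calcium pump gene SERCA read 11.15, 12.08 and 12.27, with control 1 the lowest.

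Fat body and hemolymph genes were present at high levels for lipid synthesis and transport. The few measured genes for serum and fat body proteins of later larvae lay below the array median. Of 21 genes for lipid carriers and storage, 7 lay in the top 10%. The fatty acid synthase FASN1 read 13.68 ± 0.17, the lipophorin precursor apolpp 13.55 ± 0.11 and the fatty acid binding protein fabp 13.17 ± 0.27. The storage protein gene Lsp2 and the fat body protein genes Fbp2 and Fbp1, known from the third instar, read 5.20 ± 0.12, 3.93 ± 0.084 and 3.91 ± 0.081. For metal handling, the ferritin subunits Fer1HCH and Fer2LCH read 12.81 ± 0.080 and 12.62 ± 0.16, and the metallothionein MtnA 13.58 ± 0.21. The metallothionein MtnB read 12.44, 10.94 and 9.22, MtnC 10.07, 8.03 and 5.88 and MtnD 12.70, 11.51 and 10.27. All 3 of them were highest in control 1 and lowest in control 3, and MtnC spanned 18.3-fold.

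Detoxification families differed from one another in level. Of 34 glutathione S-transferases, which join glutathione to toxic compounds, 13 lay in the top 10% and their medians were 85.1, 88.9 and 85.96. GstD1 read 13.37 ± 0.067 and GstE9 12.74 ± 0.20. The 35 UDP-glycosyltransferases lay near the middle, with medians of 52.3, 53.6 and 53.6 and 2 in the top 10%. The 85 cytochrome P450 genes, oxidases of xenobiotics and hormones, were spread across the whole scale. Of these, 6 (7.06%) lay in the top 10% and 16 (18.8%) in the bottom 25%, near the 8.53% and 23.2% of all genes. Cyp6d5 read 11.49 ± 0.16 and Cyp316a1 3.07 ± 0.062. Constitutive chaperones stood high, 13 of 17 in the top 10%, with Hsc70-4 at 12.998, 13.17 and 13.31. The heat-inducible Hsp70 family gene Hsp68 and the small heat shock protein genes Hsp27 and Hsp26 read 6.95 ± 0.14, 6.83 ± 0.32 and 6.81 ± 0.14. Pdi, the protein disulfide isomerase gene, lay in the bottom 25% at 2.90, 2.93 and 2.85, below the median of the tag controls.

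Antimicrobial peptide genes lay mostly below the array median, and other immune genes were spread over the scale. Of 13 antimicrobial peptide genes, 9 lay below the median in all 3 arrays and 0 in the top 10%, with medians of 33.1, 32.9 and 28.7. The bottom 25% held 3 of them (23.1%), near the 23.2% of all genes. DptB, a diptericin, read 10.34, 9.68 and 8.67. Mtk, which encodes metchnikowin, read 10.54, 9.55 and 8.16. Both were highest in control 1 and lowest in control 3. A range above 1 log2 unit between arrays was found for 4 of the 13 genes (30.8%), against 6.53% of all genes. Of these 4, 2 were highest in control 1, 1 in control 2 and 1 in control 3. PGRP-SC2, a peptidoglycan amidase, was the highest of 7 measured peptidoglycan recognition genes, at 11.12, 11.85 and 11.52, and 5 of the 7 lay above the median. Of 18 genes listed for blood cells, 10 lay above the median and 6 below it in all 3 arrays. In the top 10% lay 2, Col4a1 and vkg, the collagen IV chains of basement membrane that fat body also makes, at 12.60 ± 0.052 and 12.06 ± 0.12. The prophenoloxidases PPO2 and PPO1 of crystal cells read 9.75 ± 0.33 and 8.61 ± 0.39. The crystal cell factor lz read 2.89 ± 0.14 and PPO3, known from lamellocytes, 3.48 ± 0.081.

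Genes of neurons and glia lay mostly above the array median, and receptors of smell and taste lay at the bottom. Of 19 neuronal genes, 14 were above the array median in all 3 arrays, with medians of 71.5, 78.01 and 83.6. The sodium pump subunit nrv3 read 11.79 ± 0.55, the GABA-synthesising enzyme Gad1 9.62 ± 0.66 and the synaptic chaperone Csp 9.92 ± 0.10. The active zone gene brp read 6.65 ± 0.47, the sodium channel para 5.49 ± 0.30 and the vesicular glutamate transporter VGlut 4.01 ± 0.13. For glia, glutamine synthetase Gs2 read 12.20 ± 0.43, the astrocyte gene alrm 8.19 ± 0.87 and the pan-glial factor repo 7.20 ± 0.48. Of 35 neuropeptide and peptide hormone genes, 2 lay in the top 10%, Nplp2, named above, and Nplp4, at 11.62, 12.77 and 13.03. AstC, allatostatin C, read 10.23 ± 0.23 and Ilp8, an insulin-like peptide, 4.17 ± 0.072.

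Of 166 chemosensory receptor genes, 143 lay in the bottom 25% of all 3 arrays and 0 in the top 10%, against 23.2% and 8.53% of all genes. The medians were 12.96, 10.9 and 10.6 for 57 odorant receptors, 11.4, 11.8 and 11.2 for 56 gustatory receptors and 11.3, 11.8 and 10.6 for 53 ionotropic receptors. The co-receptor Orco, shared by olfactory neurons, read 4.81, 4.59 and 4.67, close to the highest tag controls. The carbon dioxide receptor gene Gr21a read 4.60 ± 0.28 and the ionotropic receptor Ir76a 5.58 ± 0.23, the highest member of its family. Odorant-binding proteins, small secreted carriers, also lay low but less so, with medians of 28.8, 28.1 and 28.6. Of 48, 4 (8.33%) lay in the top 10% and 20 (41.7%) in the bottom 25%. The share at the top was near the 8.53% of all genes, and the share at the bottom was above their 23.2%. Obp44a read 12.93 ± 0.19, Obp56a 12.91 ± 0.28, Obp99c 12.36 ± 0.13 and Obp99a 11.31 ± 0.16, whereas Obp57a and Obp57e read 3.01 ± 0.12 and 2.93 ± 0.11. The 7 measured genes of opsins and phototransduction lay low too. The phototransduction channel gene trp read 3.54 ± 0.025 and the arrestin Arr1 6.66 ± 0.33.

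Genes of DNA replication and mitosis lay near or below the middle. Of 28 replication genes, 0 lay in the top 10% and 0 in the bottom 25%, with medians of 53.3, 50.5 and 50.6. The sliding clamp PCNA read 9.25 ± 0.093 and the origin subunit Orc2 5.32 ± 0.12. The 23 genes of mitosis and cyclins had medians of 38.9, 38.8 and 37.2, from Cdk4, at 8.34 ± 0.068, to the separase partner thr, at 4.08 ± 0.084. Of 10 insulin and TOR pathway genes, 8 lay above the median in all 3 arrays. The ribosomal S6 kinase S6k read 10.31 ± 0.038, the kinase Akt 9.44 ± 0.20 and the insulin receptor InR 8.66 ± 0.33. Proteasome genes lay high, 16 of 26 in the top 10%, with 11 of 12 subunits of the core particle and 5 of 14 of the regulatory particle there. Of the 26, 22 were highest in control 2, against 3693 of 11983 genes, by small amounts, with a median range of 0.27.

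Regulators of body pattern were low apart from a few. Of 21 early patterning genes, 11 lay in the bottom 25%, among them hb, at 3.30 ± 0.12, and prd, at 3.24 ± 0.088. The repressor gene hry, known as hairy, stood apart at 11.12, 11.14 and 11.12, a range of 0.02. Of the homeotic selector genes, 4 were measured: Antp read 7.44 ± 0.54, Scr 5.34 ± 0.089, Dfd 4.62 ± 0.11 and pb 3.33 ± 0.069. The 23 Polycomb and Trithorax group genes, which hold homeotic genes off or on, lay around the middle with medians of 56.1, 58.6 and 64.3. The remodeller kis read 9.71 ± 0.14 and brm 8.63 ± 0.23. Pc itself lay at a mean percentile of 40.9. Of 10 genes with a JmjC demethylase domain, NO66 read 9.04 ± 0.13, Kdm5 8.65 ± 0.24 and Utx 6.65 ± 0.34. The gene targeted in the study, Kdm4A, was the lowest of the 10 in mean value, at 5.18, 5.26 and 5.46, percentiles 33.7 to 35.9.

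Endocrine genes lay at many levels. Of 11 ecdysone synthesis genes, 8 lay below the median in all 3 arrays. The enzymes spok, sad and dib, which act in the prothoracic gland, read 5.48 ± 0.27, 4.95 ± 0.036 and 5.28 ± 0.067, and spo, the embryonic counterpart of spok, 2.98 ± 0.092. The juvenile hormone enzyme jhamt read 6.03 ± 0.54 and the epoxide hydrolase Jheh2 9.68 ± 0.22. Among 14 nuclear receptors and partners, the moult-cycle factor ftz-f1 read 7.78, 7.86 and 8.49. Hr4 was highest in control 1, with 6.96, 6.02 and 4.79, and br in control 3, with 6.56, 7.18 and 7.73. Of the ecdysone-inducible secreted and membrane proteins, ImpL1 read 11.30, 11.31 and 9.32. ImpE1 read 9.69, 9.13 and 7.56 and ImpE2 9.44, 8.46 and 6.07. All 3 were lowest in control 3. Of the 8 measured Imp and Eip genes, 4 were lowest in control 3, 2 in control 1 and 2 in control 2. A range above 1 log2 unit between arrays was found for 4 of the 8. Of these 4, 2 were highest in control 1, 1 in control 2 and 1 in control 3.

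Genes of other stages, of adults and of gonads mostly lay low. Of 19 salivary glue and pupal-onset genes, 13 lay in the bottom 25%, with Sgs4, a glue protein of the third instar, at 3.19, 3.25 and 3.15. The other 6 were Sgs5 and Eig71Ee, at mean percentiles of 33.4 and 32.3, and the new glue genes ng1, ng2, ng3 and ng4, described below. All 4 genes of yolk uptake and supply lay below the median, with Yp1 at 3.71 ± 0.15 and Yp2 at 3.81 ± 0.094. Of 13 eggshell genes 7 lay in the bottom 25%, as did 20 of 22 seminal fluid genes and 24 of 27 genes of spermatogenesis or the Y chromosome. Of 17 germ cell genes, 7 (41.2%) lay in the bottom 25%, against 23.2% of all genes. In all 3 arrays 14 of the 17 lay below the median and 3 above it. The helicase gene vas, which marks germ cells, read 3.59 ± 0.13, osk 3.28 ± 0.058 and aub 4.85 ± 0.051. The germ plasm gene tud, the highest of the 17, read 9.54, 9.72 and 9.61.

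Pairs of genes that encode the same part of a machine were divided in the same way in all 3 arrays. Of 18 pairs listed, 11 had both members measured. The widely used member lay in the top 10% in 10 of them, and Pglym78 was the exception. The member limited to testis, adult flight muscle or heat shock was the lower one in all 3 arrays in 11 of 11, and it lay in the bottom 25% in 7. This order was largely set by how the pairs were chosen, so it describes levels and tests nothing. The tubulin betaTub56D read 12.51, 12.73 and 12.58. The testis tubulin betaTub85D read 3.49, 3.61 and 3.58. The proteasome subunit Prosbeta5 read 11.39 ± 0.12 and its testis copy Prosbeta5R1 3.16 ± 0.12. Troponin C genes divided in the same way, with TpnC73F at 10.45, 10.84 and 11.02 and TpnC4 as given above. The limited members with the highest levels were the cap-binding variant eIF4E3, at 7.59, 7.60 and 7.76, and Hsp68, already given. Members of a pair are read by different probe sets. The wider lists gave 12 of 14 testis copies of proteasome subunits in the bottom 25%, with medians of 13.9, 12.9 and 13.8.

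**Figure D2:**
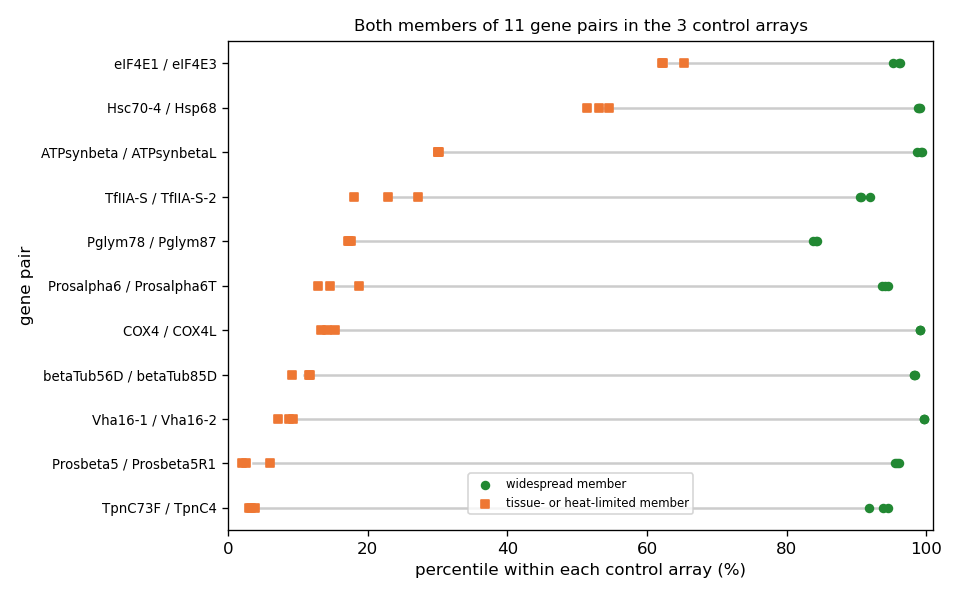
Percentile (in %) of both members of 11 gene pairs in each of the 3 control arrays, with circles for the widespread member and squares for the member limited to testis, adult flight muscle or heat shock. All squares lie to the left of their circles, and eIF4E3 and Hsp68 are the only squares past percentile 50.

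Most genes differed little between the 3 control arrays, and the cuticle protein lists held high shares of genes that did. The median range over 11983 genes was 0.26 log2 units, and 783 genes (6.53%) had a range above 1, which is over 2-fold. Of these 783 genes, 464 (59.3%) were highest in control 1, 82 in control 2 and 237 in control 3, and 480 were lowest in control 3. The count rested on controls 1 and 3. It was 273 without control 1 and 302 without control 3, and 716 without control 2. Control 1 is also the array with the largest 3′ to 5′ gaps, given above, and whether RNA length had a part in these differences was not tested. Genes at the bottom of the array scarcely entered the count. With genes in 5 equal bins of mean level, the share with a range above 1 was 0.167% in the lowest bin. It was 5.13%, 10.3% and 8.51% in the bins above it and 8.59% in the highest.

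**Figure D3:**
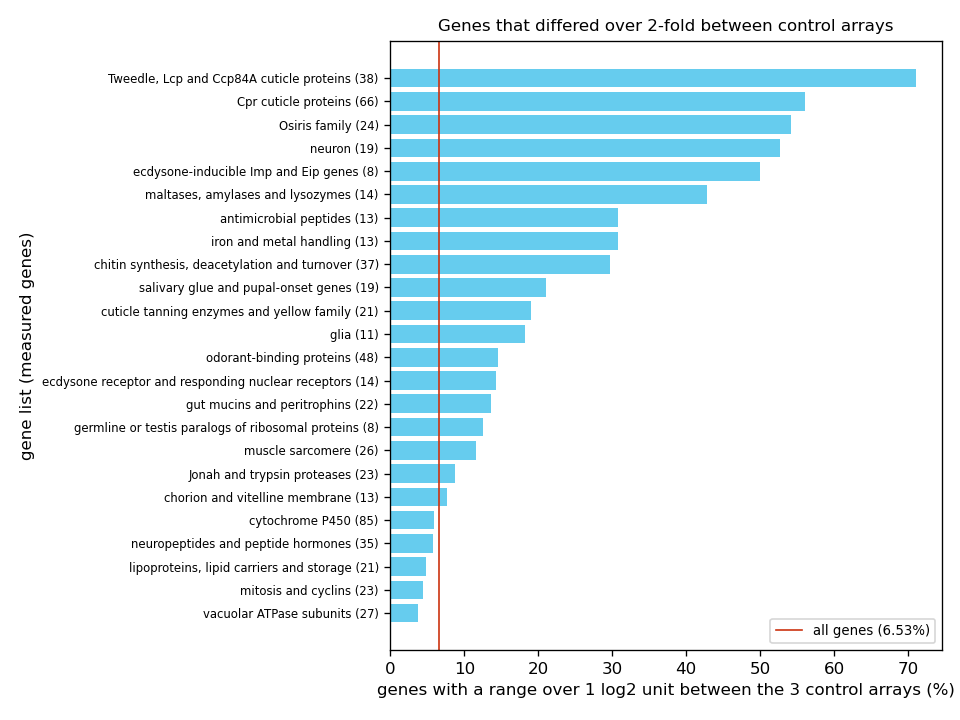
Percentage of measured genes with a range above 1 log2 unit between the 3 control arrays, for the 24 lists with the highest percentages among lists with at least 8 measured genes. The red line marks 6.53%, the share over all genes, and the 2 lists of cuticle proteins, the Osiris list and the neuron list all exceed 50%.

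Most cuticle protein genes differed between the arrays. Of 66 measured Cpr genes, which encode chitin-binding structural proteins, 37 had a range above 1, and 48 of 66 were highest in control 1, against 3511 of 11983 genes. Their medians were 68.7, 52.4 and 39.8. The count was 20 without control 1, 35 without control 2 and 31 without control 3. Cpr5C read 10.63, 8.67 and 6.76. Cpr47Ec read 10.89, 9.03 and 7.18, also with control 1 the highest and control 3 the lowest. Cpr67Fb read 11.21, 7.51 and 8.91, and here control 2 was the lowest. Cpr47Eg, high in all 3 arrays, read 12.92, 12.03 and 12.94, with control 2 the lowest. Cpr50Ca lay in the bottom 25% at 2.83, 2.81 and 2.80.

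The Tweedle, Lcp and Ccp84A proteins, cuticle components listed apart from the genes with a Cpr name, were spread in a similar way. Of 38 measured, 27 had a range above 1 and 29 were highest in control 1, with medians of 89.3, 77.5 and 57.02. Without control 1 the count was 12, and it was 26 without control 3. Lcp65Ad read 10.81, 8.43 and 5.32, a range of 45.1-fold. TwdlE read 9.35, 7.89 and 4.82 and TwdlV 11.58, 10.07 and 7.22. Control 1 was the highest for all 3. Lcp65Ag3, by contrast, read 13.71, 13.62 and 13.87, near the top of all 3 arrays. TwdlO ran against its family at 9.80, 10.98 and 11.72, highest in control 3. Of 24 Osiris genes, whose products act in secretion by cuticle-forming cells, 13 had a range above 1. This count was 1 without control 3 and 12 without control 1. Osi6 read 13.57, 13.40 and 12.01. Osi15 read 13.19, 12.48 and 10.91 and Osi19 11.81, 11.05 and 8.47, and these 3 genes were lowest in control 3. Osi4 and Osi22 lay in the bottom 25%.

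Genes that make and remodel chitin followed with 11 of 37 above a range of 1, and 2 without control 1 and 3 without control 3. Gasp, a chitin-binding protein of the tracheal lumen, read 12.76, 11.81 and 10.55. The chitinase Cht7 read 10.10, 8.94 and 8.27 and the deacetylase-domain gene ChLD3 6.76, 5.36 and 4.69. The chitin deacetylase serp read 11.32, 10.44 and 10.10. Control 1 was the highest for all 4. The chitinase Cht9 and the growth factor Idgf6 lay high in all 3 arrays, with ranges of 0.52 and 0.17. Pigment and tanning genes gave 4 of 21, and 0 without control 1. The laccase gene stw read 9.17, 8.13 and 7.74. Ddc, which encodes dopa decarboxylase, read 9.08, 7.78 and 7.68. In both, control 1 stood above the other arrays. The tyrosine hydroxylase gene ple read 2.66, 2.88 and 3.10, at the floor of the array.

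The new glue genes lay next to each other on the X chromosome and shared wide ranges: ng1 read 8.96, 7.83 and 5.08. The values of ng2 were 8.75, 9.03 and 4.72 and those of ng3 8.23, 7.81 and 5.58. For ng4, at 9.49, 6.97 and 6.84, control 1 stood apart. All 4 were lowest in control 3. The widest gene of all was CG13135, at 11.20, 7.996 and 5.46, a range of 53.4-fold. CG14422 read 5.68, 9.17 and 3.82 and was highest in control 2. Of the 25 genes with the largest ranges, 22 were highest in control 1 and 24 were lowest in control 3. In all, 88 of the 783 genes (11.2%) belong to the cuticle protein, Osiris and chitin lists, and 159 (20.3%) belong to any of the 64 lists.

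**Figure D4:**
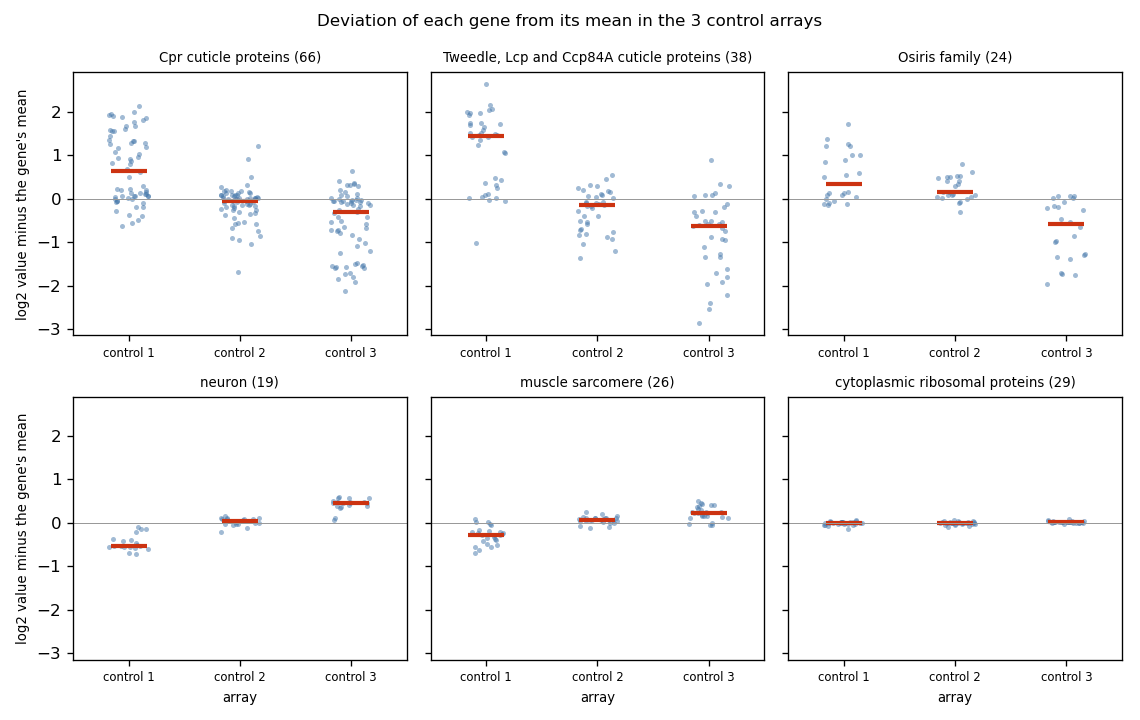
Log2 value of each gene minus that gene's mean over the 3 control arrays, by array, for 6 gene lists, with red bars at the medians. Cuticle and Osiris genes lie highest in control 1 and lowest in control 3, and neuronal and muscle genes lie the other way. Ribosomal protein genes, whose values are close to the top of the scale, stay near 0.

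Neuronal genes differed between arrays in the other direction. Of 19, 18 were highest in control 3, and 10 had a range above 1. The count was 10 without control 2, and 0 without control 1 or control 3. Gad1 read 8.90, 9.77 and 10.18 and nrv3 11.20, 11.90 and 12.28, both lowest in control 1. The RNA-binding gene fne read 8.42, 9.21 and 9.68. The vesicle gene Rab3 read 8.16, 8.73 and 9.31. Among glial genes alrm read 7.29, 8.27 and 9.02 and Mdr65 7.37, 8.16 and 8.62. Of 26 sarcomere genes, 3 had a range above 1, SERCA, given above, Msp300 and Obsc, and the count was 0 without control 1 and 0 without control 3. Msp300 read 9.55, 10.31 and 10.68 and Obsc 7.55, 8.22 and 8.56. In 27 of 35 neuropeptide genes control 3 was also the highest array. By comparison, 4779 of 11983 genes were highest in control 3. Ribosomal protein genes showed little of either pattern, with 0 of 29 past a range of 1 and a median range of 0.04. Their median log2 values, 14.20, 14.19 and 14.21, lay close to the highest values of the arrays, 14.50, 14.53 and 14.53. Whether the top of the scale kept these ranges small was not tested, so they are no measure of steady transcript levels.

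By chromosome arm, the medians of the mean percentile lay between 47.3 for 2L and 51.8 for 3L among the large arms. The X chromosome, with 1873 genes, had a median of 51.2, against 50.04 for the 9951 genes of 2L, 2R, 3L and 3R together. In the top 10% lay 8.54% of X-linked genes and 8.57% of the autosomal ones. The small chromosome 4 stood higher, with a median of 58.7 over 65 genes. Of these, 8 (12.3%) lay in the top 10%, among them apolpp and ATPsynbeta, and 9 (13.8%) in the bottom 25%. Genes of chromosome 4 were mostly highest in control 3, 53 of 65, and 8 (12.3%) had a range above 1, against 6.53% of all genes. ATPsynbeta read 12.86, 13.41 and 13.46. The 4 measured genes of the Y chromosome lay below the median, 3 of them in the bottom 25%.

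**Figure D5:**
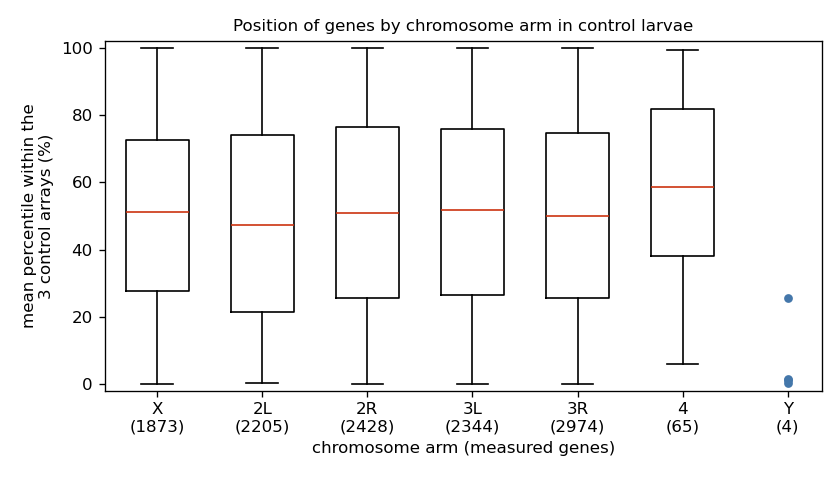
Mean percentile (in %) over the 3 control arrays by chromosome arm, with the number of measured genes under each name. Boxes span the quartiles with the median in red and whiskers reach the last value within 1.5 times the quartile range, and the 4 genes of the Y chromosome are single points. Chromosome 4 has the highest median, 58.7.

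Some neighbouring genes lay together in the same part of the array. Runs of at least 4 neighbours among the measured genes that all lay in the top 10% numbered 6 and held 27 genes. These were the protease clusters Jon65Ai, Jon65Aii, Jon65Aiii and Jon65Aiv, and alphaTry, betaTry, epsilonTry and thetaTry. Another held Acbp2, Acbp3, Acbp4 and Acbp6, which encode acyl-CoA binding proteins. The collagen genes Col4a1 and vkg stood beside Rtnl1 and SelT. The longest run, of 6, was CG33307, CG8997, CG7916, CG7953, CG7968 and Ance. Runs in the bottom 25% were 107 in number with 584 genes, and the longest held 15 genes. One of 12 on arm 3R contained Mst84Da, Mst84Db, Mst84Dc and Mst84Dd, genes of sperm structure. Genes in the bottom 25% are not distinguished from the tag controls, and 23.2% of all genes lay there. How many runs would arise without any shared level was not estimated. Probe sets of similar neighbouring copies may also share signal, here and in the runs below, which was not tested.

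Genes with a range above 1 formed 15 runs with 74 genes. The longest, of 8 on arm 3R, was Osi14 to Osi20 with CG31560, and its ranges ran from 1.40 to 3.34 log2 units. A run of 7 on arm 3L held Lcp65Ac, Lcp65Ad, Lcp65Ae, Lcp65Af, Cpr65Au, Cpr65Av and Cpr65Aw. Tweedle genes formed 2 runs of 4 on arm 3R, TwdlB, TwdlL, TwdlO and TwdlK, and TwdlH, TwdlR, TwdlS and TwdlD. The others included ng1 to ng4, the alpha-mannosidase genes LManIII, LManIV, LManV and LManVI, and 6 X-linked genes around CG14422. LManIII read 8.43, 6.34 and 3.61, highest in control 1, and its value in control 3 lay below the highest tag control.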

How the data were processed

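Whole first instar larvae were measured on Affymetrix arrays with biotin-labelled RNA, per the labels. The deposited table holds log2 values, 1 per probe set and array, made by the authors with the RMA method according to the submitters' processing notes. Its scale was read from the span of the values, and no RMA version was given in the sources used. RMA places all arrays on nearly 1 distribution, so a difference shared by most genes cannot be seen. Scanner files were not used here, and no detection calls were at hand, so the tag control probe sets served as the reference for low values.

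Of 18952 features, 183 controls were left out, 13647 name 1 gene, 402 name several and 4720 have no gene in the probe table used. Of the 11983 genes kept, 11894 (99.3%) matched the NCBI table for Release 6 of the genome, which gave names, arms and gene order only. Percentiles are mid-ranks within an array. Python 3.11.15, numpy 2.4.6, pandas 2.3.3 and matplotlib 3.10.9 were used. No test was run, since the 3 arrays form 1 group, and nothing here compares genotypes. The calculation of ranks was checked on a known series of numbers. That of ranges was checked on simulated arrays with the same noise for every gene. Such checks cover the calculation only, since the spread of the real arrays differs with level.

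The members and lists were chosen with earlier results of these data known. Several of the 64 lists were also trimmed after values were seen, to take out genes matched by name in error: Cp190 and Cp110 from the eggshell genes, Acp65Aa from the seminal fluid genes, kon and Tsp from muscle, tant, mtf, Ser proteases, ribosome assembly factors, and UQCR-Q from the testis paralogs. By the rule for named genes, the text could name the 25 genes with the highest means, the 25 with the largest ranges, in each list up to 4 members with the highest, 3 with the lowest mean and 3 with the largest range, every member of lists of up to 12, members of pairs and members of runs of neighbours. The genes named in the text fall under this rule as applied to the trimmed lists, except Sgs5 and Eig71Ee, which were chosen after their values were seen. Alternatives were other choices of the probe set, ranks over all probe sets, quantile normalization, centring on the median, the upper 60% of genes alone, and leaving out each array. Promoter motifs and protein lengths were not described, as no sequences were used here.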

Additional observations from a re-analysis of the deposited data

How the results depend on the processing

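The count of genes in the top 10% was 1022 and lay between 1022 and 1326 under the other choices of probe set, with ranks over all probe sets and without each array. The count in the bottom 25%, 2781, fell to 1500 when ranks were taken over all probe sets, among which more features lie low, and was between 2711 and 2865 otherwise. The count of genes with a range above 1, 783, was 719 with probe sets averaged per gene, 767 after quantile normalization, 756 after median centring and 656 among the upper 60% of genes. Leaving out 1 array left between 273 and 716 genes, and a range over 2 arrays cannot exceed one over 3. The same comparison, chosen after the values were seen, left 20 to 35 of 37 Cpr genes, 12 to 27 of 27 Tweedle, Lcp and Ccp84A genes, and 0 to 10 of 10 neuronal genes. No paired analysis was possible because the arrays form 1 group and no test was made.

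The median of the mean percentile was 98.2 for oxidative phosphorylation subunits, 97.9 with the mean of probe sets and 97.8 with the lowest probe set. For odorant receptors it was 11.04, 13.1 with the lowest probe set and 18.9 over all probe sets. For cytoplasmic ribosomal proteins it was 99.9, and 99.8 over all probe sets. Of 64 list medians, 9 moved by 5 points or more with the mean of probe sets, 10 with the lowest probe set and 44 with ranks over all probe sets. With the lowest probe set the largest move was 33.7 points, for the contractile genes of larval muscle, and with the mean of probe sets 31.3 points, for trachea. Signals near the tag controls, about the bottom 25% of genes, give no usable order. The cause of these differences was not tested.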

Other observations

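Many measured genes carry no descriptive name. Of the 11983 genes, 5219 carry a CG or CR number in place of a name. Their median percentiles were 40.3, 40.2 and 39.6, against 56.04, 56.6 and 56.9 for the 6764 genes with another symbol. The numbered genes supplied 318 of the 1022 genes in the top 10% and 413 of the 783 genes with a range above 1. These were 6.09% and 7.91% of the numbered genes, against 8.53% and 6.53% of all genes.

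Features with no gene in the probe table used lay lower than the rest, with a median of mean percentiles of 25.9 against 50.05 over all features. Of these 4720, 212 (4.49%) lay in the top 10% of all 18769 non-control features, against 8.69% of all features and 9.99% of those that name 1 gene. The bottom 25% held 42.7% of them, against 21.7% of all features. Even so, 65 lay in the top 1%. The top 1% of all 3 arrays held 163 features in all, of which 90 name 1 gene. The listed ribosomal protein genes without a measured value have no probe set that names them alone in that table. What the unnamed features measure is not known here.

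Single probe sets at the floor of the array stood out among genes of housekeeping or well known larval function. Pdi read 2.90, 2.93 and 2.85 and ple 2.66, 2.88 and 3.10, below every tag control on at least 1 array. Both are read by 1 probe set, so no second reading was at hand.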
